A study of Mus musculus with 192 samples.

Results

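Pf4, Ppbp, Gp1ba, Gp9, Gp6, Itga2b, Itgb3, Treml1 and Vwf are genes of megakaryocytes and of the platelets that megakaryocytes shed. They were taken by gene name, and all 9 were found among the 54752 genes of the table. RNA was sequenced from 9 tissues of 24 mice, in 192 libraries. The tissues were the bone around the inner ear (temporal bone, TpB), the lower jaw bone (mandible, MdB), the lymphoid organs Spl (spleen) and Thy (thymus), white fat of the epididymis (eWAT), brown fat between the shoulder blades (iBAT), Liv (liver), Kid (kidney) and Cbr (cerebrum). GC_WT were wild-type mice of the ground control and FL_WT were wild-type mice that flew to the space station, while GC_KO and FL_KO were the corresponding Nrf2-knockout mice (Nrf2KO), which lack a functional Nfe2l2 gene in all cells from birth. All mice were males on the C57BL/6 background with a labelled age of 12 weeks, and they were housed singly in the same kind of cage. The ground control was run at another place and later in the year, and flight mice were dissected after their return to Earth. Flight therefore cannot be told apart from site, season and the return. There were 6 mice per group in 7 tissues and 3 per group in MdB and Kid. The knockout mouse FL04, which had intestinal bleeding, was left out of every comparison, which left 5 FL_KO mice, or 2 in MdB and 3 in Kid.

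Megakaryocytes are large polyploid cells of bone marrow and, in mice, also of the spleen. They pack chemokines, adhesion proteins and clotting proteins into granules and release platelets, which keep part of the parent cell's RNA. On a platelet, the glycoprotein Ib complex catches von Willebrand factor on an injured vessel wall, glycoprotein VI binds collagen, and the integrin of Itga2b and Itgb3 then binds fibrinogen and links platelets to each other. GATA and ETS family transcription factors are known to drive megakaryocyte genes. A bulk tissue sample does not separate fewer cells of a type from less RNA per cell, so every difference given here may be either.

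On the GRCm38 build, the chemokine gene Pf4 (platelet factor 4) is protein coding and lies at chr5:90772435-90773383 on the plus strand. Its neighbour Ppbp (pro-platelet basic protein, a chemokine precursor) lies at chr5:90768518-90770063 on the same strand, 2372 bases upstream. Gp1ba (chr11:70639122-70642036, plus strand) encodes the chain of glycoprotein Ib that binds von Willebrand factor, and Gp9 (chr6:87778072-87779768, plus strand) encodes a partner chain of the same receptor. Gp6 (chr7:4363965-4397744, minus strand) encodes the collagen receptor. Itga2b (chr11:102453297-102470122, minus strand) and Itgb3 (chr11:104608000-104670476, plus strand) encode both chains of the fibrinogen receptor, and Itgb3 also pairs with another alpha chain in osteoclasts, endothelium and macrophages. Treml1 (chr17:48359916-48367176, plus strand) encodes a receptor of platelet granule membranes. Vwf (chr6:125546774-125686679, plus strand) encodes von Willebrand factor, which endothelial cells make as well.

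The 250 bases before the start of 3 genes are printed because Gp1ba held both motif types, Gp6 held a GATA motif alone, and Ppbp, which rose and fell with them between mice, held none. Sequences are from RefSeq on GRCm38.p6, 5′ to 3′ on the strand of the gene, with matches in capitals.
Gp1ba, chr11:70638872-70639121, plus strand: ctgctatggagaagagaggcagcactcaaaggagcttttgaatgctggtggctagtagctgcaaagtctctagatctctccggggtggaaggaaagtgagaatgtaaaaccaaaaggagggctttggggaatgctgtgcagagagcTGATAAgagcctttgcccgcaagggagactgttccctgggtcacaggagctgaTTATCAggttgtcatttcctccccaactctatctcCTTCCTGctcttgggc
Gp6, chr7:4397745-4397994, minus strand: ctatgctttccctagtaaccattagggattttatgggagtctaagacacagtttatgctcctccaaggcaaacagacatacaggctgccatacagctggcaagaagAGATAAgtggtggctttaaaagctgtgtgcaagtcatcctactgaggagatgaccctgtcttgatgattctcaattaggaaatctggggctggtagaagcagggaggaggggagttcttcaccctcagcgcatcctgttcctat
Ppbp, chr5:90768268-90768517, plus strand: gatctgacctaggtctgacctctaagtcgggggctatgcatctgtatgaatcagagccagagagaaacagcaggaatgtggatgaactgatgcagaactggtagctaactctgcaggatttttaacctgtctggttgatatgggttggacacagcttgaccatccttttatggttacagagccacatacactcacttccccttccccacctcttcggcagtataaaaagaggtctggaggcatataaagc
Both strands were searched for 3 motif types. A GATA motif was AGATAA, or the same with a first base of T (TGATAA). An ETS motif was CCGGAAG, or the same with AG after the leading C (CAGGAAG). The core shared by AP-1 and NF-E2 factors was TGAGTCA. No match overlapped another in these windows. Counting the start as base 1, Gp1ba held TGATAA at -104 to -99, the same letters on the other strand at -51 to -46, and CAGGAAG on the other strand at -16 to -10. Gp6 held AGATAA at -144 to -139. RefSeq windows from 250 bases before to 50 bases after the start were matched for 7 of the 9 genes. A GATA motif was in 3 of these 7 windows (the third was Pf4, at 37 to 42), an ETS motif in 1, and TGAGTCA in 0. Over all 32851 windows of the table the shares were 18.6% for GATA, 20.9% for ETS, 5.2% for TGAGTCA and 3.11% for GATA with ETS. A match is a string of letters and was not tested as a binding site.

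Libraries held 8007523 to 10564704 expected counts in Thy and 12954949 to 16308175 in the other tissues. Nfe2l2, the gene that was knocked out, was called lower in knockout mice in each of the 9 tissues (log2 fold change -1.82 in Cbr to -0.26 in Spl, averaged over flight and ground). In Spl it lay at 60.4 to 67.8 TPM (a transcript level scaled by gene length and library depth) in knockout mice and at 73.1 to 86.7 TPM in WT mice, and in Cbr at 3.72 to 6.39 against 13.8 to 18.1 TPM. Reads on the gene remained in knockout mice, so it checks the labels but not the size of the loss. Marker genes of the labelled tissues were present. MdB was led by tooth enamel genes, whose list summed to 82610 to 201802 TPM, and TpB carried inner-ear, skeletal muscle and marrow genes.

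Levels across tissues were read in GC_WT mice. Thy libraries were made from rRNA-depleted RNA and the others from poly(A) RNA, so a level in Thy is not strictly comparable. All 9 genes were high in TpB and Spl, where marrow and red pulp hold megakaryocytes, and 4 of them (Gp1ba, Gp9, Gp6 and Treml1) were below 1 TPM elsewhere. Ppbp was the highest member, with 208 ± 70.4 TPM in TpB and 104 ± 38.9 TPM in Spl (mean ± SD, n = 6 mice each), followed by 2.63 ± 1.96 TPM in MdB (n = 3). Pf4 reached 139 ± 51.2 TPM in TpB, 66.1 ± 7.67 TPM in eWAT and 51.05 ± 15.1 TPM in Spl. Thus eWAT, a fat depot, had Pf4 at the level of spleen without Ppbp, which stood at 0.81 ± 0.27 TPM there.

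The adhesion receptors showed the narrowest distribution. Gp1ba was at 12.4 ± 3.71 TPM in TpB and 8.01 ± 2.14 TPM in Spl, and Gp6 was at 4.70 ± 1.62 and 4.34 ± 1.17 TPM. Treml1 was at 25.4 ± 9.69 TPM in TpB and 10.7 ± 2.78 TPM in Spl. In the other 7 tissues Gp1ba, Gp6 and Treml1 were under 1 TPM in every mouse of every group, MdB included. Gp9, at 26.7 ± 10.98 TPM in TpB and 12.4 ± 2.57 TPM in Spl, was under 1 TPM in every mouse of 6 tissues and reached up to 1.32 TPM in Cbr.

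The integrin chains and Vwf spread further. Itgb3 was at 33.1 ± 5.11 TPM in Spl and 32.3 ± 9.10 TPM in TpB, then 5.97 ± 0.40 TPM in MdB and 4.58 ± 0.91 TPM in Thy. Its partner Itga2b, which is more restricted to megakaryocytes, was at 42.6 ± 16.6 TPM in TpB, 18.9 ± 6.88 TPM in Spl and 2.15 ± 0.12 TPM in Kid, and reached at most 1.41 TPM in the other 6 tissues. Vwf was at 18.5 ± 3.52 TPM in TpB, 17.9 ± 5.19 TPM in eWAT, 8.87 ± 1.87 TPM in Spl and 4.31 ± 0.91 TPM in Cbr.

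**Figure D1:**
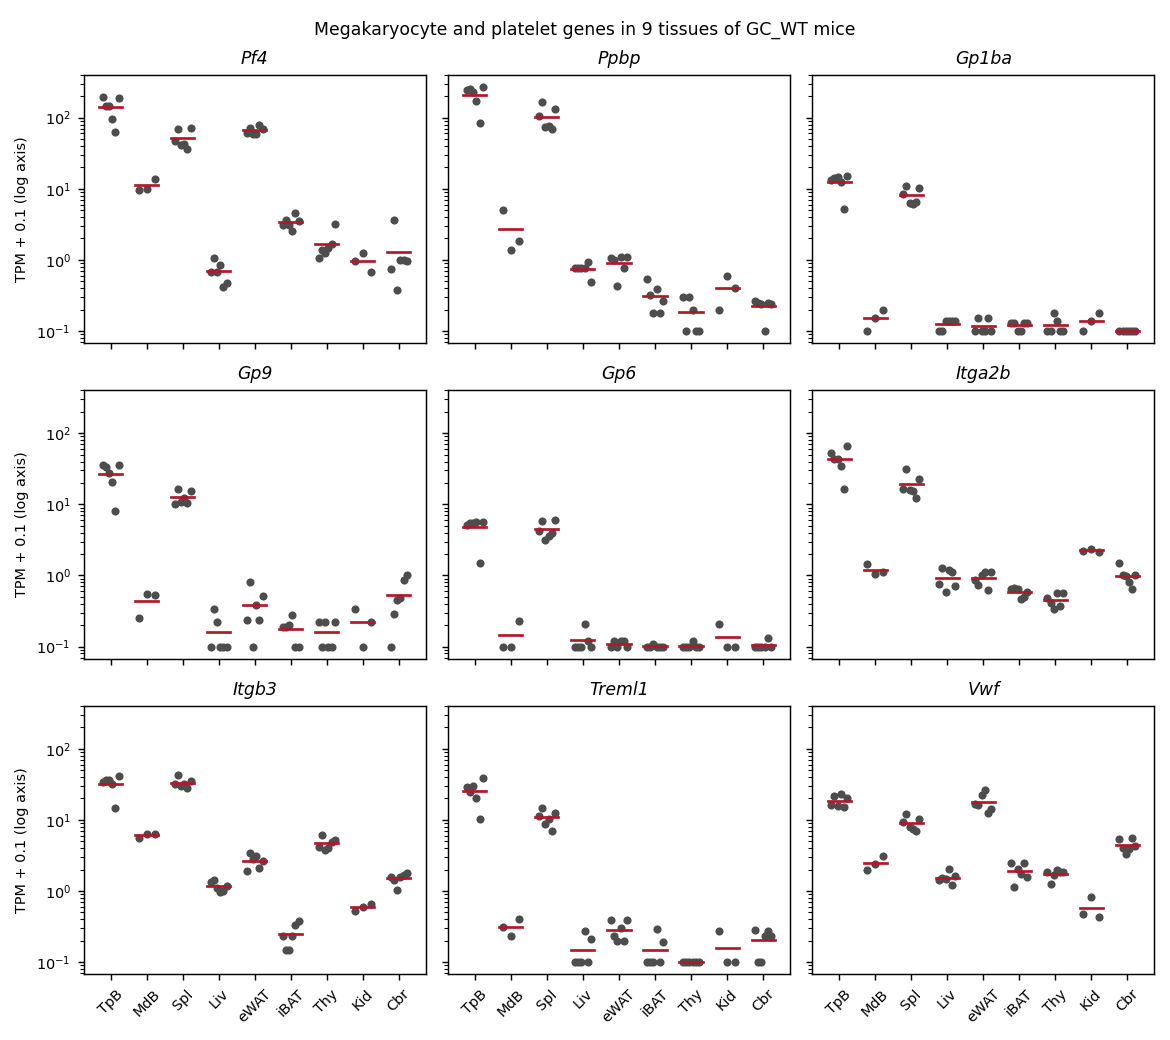
Levels of the 9 genes in 9 tissues of GC_WT mice, 1 panel per gene. Points are mice, the vertical axis is TPM + 0.1 on a log scale and the red lines are means. TpB and Spl stand above the other tissues in the panels of Ppbp, Gp1ba, Gp9, Gp6, Itga2b, Itgb3 and Treml1, while Pf4 and Vwf are also high in eWAT.

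For each gene the tissues were put in the order of their mean, and neighbours in that order were compared by an exact two-sided permutation test on log2(TPM + 0.1), adjusted over the 72 neighbour pairs. The same mice gave several tissues, which the test does not use. Pairs with Thy also set rRNA-depleted against poly(A) libraries. Of the 72 pairs, 23 differed at an adjusted p under 0.05. TpB and Spl could not be separated for Ppbp (exact permutation adjusted p = 0.058), Gp1ba (0.15), Gp9 (0.090), Gp6 (1) and Itgb3 (1), whereas TpB was above Spl for Itga2b (0.047) and Treml1 (0.039). The step from Spl, or for Itgb3 from TpB, down to the next tissue passed for each member (adjusted p 0.031 or 0.039 in the exact permutation tests). For Pf4, TpB was above eWAT (0.039) and eWAT did not differ from Spl (0.13). For Vwf, TpB did not differ from eWAT (0.92) and eWAT was above Spl (0.031). With 3 mice on both sides, as for MdB against Kid, the smallest p this test allows is 0.10.

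The ratio of Pf4 to Ppbp, neighbouring genes of 1 strand, had lower ranges in TpB and Spl than in MdB, iBAT and eWAT. Over all mice it was 0.48 to 0.87 in TpB with a median of 0.69, and 0.42 to 0.67 in Spl with a median of 0.52. It was 1.96 to 12.6 in MdB, 2.96 to 55.8 in iBAT and 18.2 to 340.5 in eWAT, where Ppbp was at 0 in 1 mouse. Ppbp was low in these tissues, and the ratio of 340.5, in FL_KO replicate 9, rests on 2 expected counts of it. In Liv (0.20 to 3.90) and Kid (0 to 8.70) the ratio ran across the ranges of TpB and Spl. The eWAT libraries carried macrophage genes at a summed 903 to 2281 TPM and endothelial genes at 771 to 1576 TPM. Their part in the Pf4 level of eWAT was not tested.

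**Figure D2:**
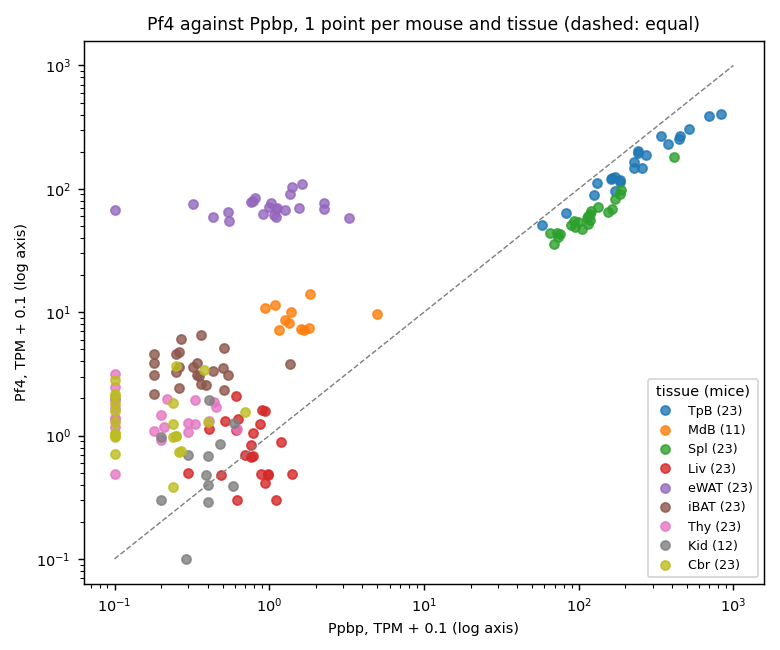
Pf4 against Ppbp in each mouse and tissue, both as TPM + 0.1 on log axes, with a dashed line where they are equal. Points are libraries coloured by tissue. TpB and Spl lie along the line, slightly on the Ppbp side, and eWAT lies far on the Pf4 side with a median ratio of 74.2.

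Groups were then compared within each tissue on expected counts with edgeR's quasi-likelihood test and Benjamini-Hochberg adjustment over all genes of the tissue, and a gene is called here at an adjusted p under 0.05. All edgeR p-values below are of this kind. Of 81 pairs of member and tissue, 44 passed the filter on low counts, 9 of them in TpB, 9 in Spl, 5 in MdB, 5 in eWAT, 4 in iBAT and 3 in each of the other 4 tissues. The comparisons share groups, so they are not independent. Knockout was compared with WT, and flight with ground, both within a stratum and averaged over the other factor.

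In Spl, the members were higher in knockout than in WT mice. Averaged over flight and ground, 8 of 9 were called higher and 0 lower, where 1.8% of all 16170 genes tested were called higher. Pearson's r between pairs of members in Spl was 0.82 to 0.97 after group means had been removed, so these calls are not independent observations. The members' median log2 fold change was 0.63, against 0.00 over all genes. The members were chosen with earlier results of these data known, so this contrast is not an independent test. Treml1 rose most, by 0.82 ± 0.19 on the log2 scale (± SE, adjusted p = 0.013, 1.76-fold), and Vwf, at 0.55 ± 0.16, missed the threshold (adjusted p = 0.061). The count of 8 rests on single mice, since it fell to 1 to 5 when any 1 of 17 of the 23 mice was left out.

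Of the chemokines, Pf4 in Spl had a lowest, median and highest level of 35.9, 44.9 and 70.9 TPM in GC_WT, 43.3, 51.8 and 57.4 TPM in FL_WT, and 51.9, 78.2 and 179.8 TPM in GC_KO. The 5 FL_KO mice had 48.6, 56.3, 61.9, 64.7 and 82.7 TPM. The groups overlapped, and 1 GC_KO mouse, replicate 4, stood far above the rest. Ppbp was at 69.5, 90.2 and 165 TPM in GC_WT (lowest, median, highest), 65.15, 91.2 and 113 TPM in FL_WT, 114, 153 and 411 TPM in GC_KO, and 94.7, 117.9, 118.0, 154 and 173 TPM in FL_KO. Every GC_KO mouse was above the highest FL_WT mouse, and the same mouse was highest. Averaged over flight and ground, Pf4 was higher in knockout by 0.61 ± 0.17 on the log2 scale (adjusted p = 0.048) and Ppbp by 0.75 ± 0.20 (adjusted p = 0.036).

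The receptor for von Willebrand factor gave the same picture. Gp1ba in Spl was at 6.05, 7.38 and 10.8 TPM in GC_WT (lowest, median, highest), 5.75, 7.21 and 9.25 TPM in FL_WT, 8.65, 10.9 and 33.0 TPM in GC_KO, and 8.78, 9.33, 9.34, 12.9 and 14.2 TPM in FL_KO. Gp9 was at 10.04, 11.4 and 16.1 TPM in GC_WT, 9.21, 10.45 and 12.1 TPM in FL_WT, 13.8, 17.8 and 38.65 TPM in GC_KO, and 8.97, 12.3, 12.4, 12.7 and 16.1 TPM in FL_KO. For Gp9 the FL_KO mice lay within the range of the WT groups except for the lowest and the highest of them. The averaged differences were 0.75 ± 0.19 for Gp1ba (adjusted p = 0.029) and 0.52 ± 0.15 for Gp9 (adjusted p = 0.048).

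The collagen receptor Gp6 was at 3.07, 3.96 and 5.84 TPM in GC_WT (lowest, median, highest), 3.12, 3.59 and 4.99 TPM in FL_WT, 4.46, 6.23 and 15.7 TPM in GC_KO, and 3.56, 3.99, 4.38, 5.39 and 6.74 TPM in FL_KO. It differed between knockout and WT by 0.63 ± 0.17 on the log2 scale (adjusted p = 0.040). Treml1 was at 6.90, 10.8 and 14.8 TPM in GC_WT, 6.74, 8.98 and 12.3 TPM in FL_WT, 11.8, 14.9 and 42.9 TPM in GC_KO, and 11.9, 13.45, 13.6, 17.1 and 19.4 TPM in FL_KO. For Treml1 each knockout mouse stood above both WT medians, while the ranges of knockout and GC_WT mice still overlapped.

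The fibrinogen receptor chains followed. Itga2b in Spl was at 12.3, 16.1 and 31.2 TPM in GC_WT (lowest, median, highest), 15.6, 18.6 and 21.2 TPM in FL_WT, 22.1, 28.5 and 68.8 TPM in GC_KO, and 19.8, 20.97, 22.35, 27.2 and 32.04 TPM in FL_KO. Its averaged difference was 0.66 ± 0.18 (adjusted p = 0.037). Itgb3 was at 27.55, 31.6 and 42.2 TPM in GC_WT, 26.75, 28.6 and 33.0 TPM in FL_WT, 31.3, 40.6 and 80.7 TPM in GC_KO, and 30.85, 32.4, 35.2, 39.4 and 46.2 TPM in FL_KO, and differed by 0.43 ± 0.12 (adjusted p = 0.044). Vwf, which endothelium shares, was at 6.92, 8.53 and 11.85 TPM in GC_WT, 7.11, 7.63 and 9.02 TPM in FL_WT, 8.39, 10.9 and 27.6 TPM in GC_KO, and 8.08, 8.96, 11.3, 11.7 and 14.2 TPM in FL_KO.

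**Figure D3:**
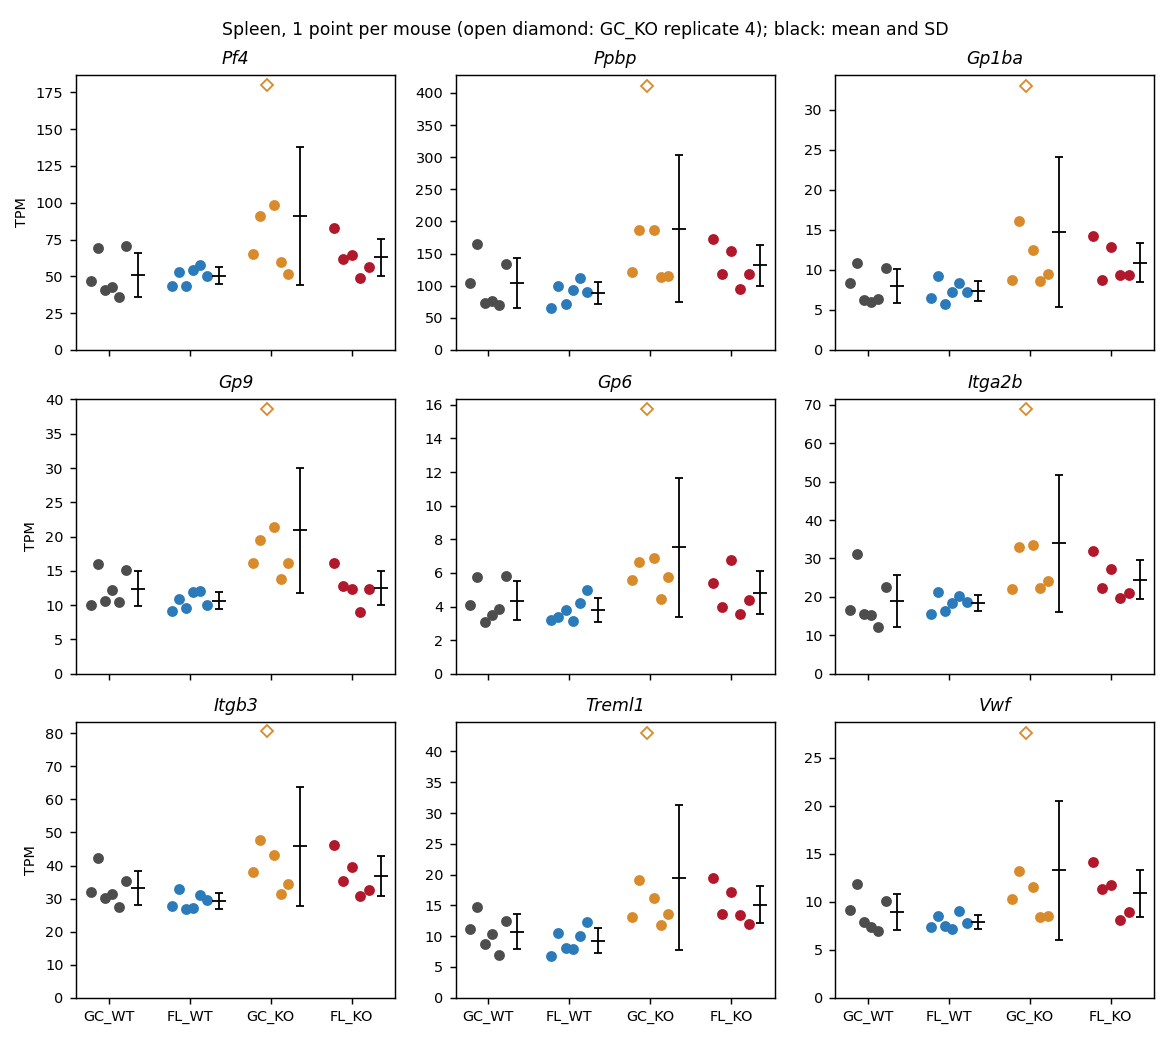
TPM of the 9 genes in Spl of each mouse, by group, 1 panel per gene, with black marks for the mean and SD. The open diamond is GC_KO replicate 4, the highest mouse in each panel (411 TPM for Ppbp). Without it, the ranges of GC_KO and the WT groups still overlap in the panel of Pf4.

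Between genotypes within flight or within ground, 0 of 9 members were called in Spl. Between GC_KO and GC_WT, where 0.588% of genes were called higher, all 9 log2 differences were above 0 (0.47 to 0.88) and all 9 had an unadjusted p under 0.05, while DESeq2 called Pf4, Gp9 and Gp1ba and limma called 0. Between FL_KO and FL_WT (0.495% of genes called higher), the 9 differences were 0.29 to 0.77 and 6 had an unadjusted p under 0.05. The difference of the genotype effect between flight and ground was not called for any member in any tissue, with 0% of genes called in Spl, and 1 pair, Itgb3 in Kid, at an unadjusted p under 0.05 (DESeq2 and limma called 0). Leaving out GC_KO replicate 4 lowered the 9 averaged differences to 0.31 to 0.61 and left 7 called, with Pf4 (0.45, adjusted p = 0.059) and Vwf (0.36, adjusted p = 0.051) outside. Of the other mice, 5 could each be left out with 8 or 9 members still called (FL_KO 11, GC_KO 1, 11 or 12, and GC_WT 5). Leaving out any 1 of the remaining 17, among them every FL_WT mouse, gave 1 to 5 called, with 1 to 3 for 14 mice and 1 for FL_KO 1 or 9 and GC_WT 6 or 7. On all mice, for the averaged difference, DESeq2 called all 9 members higher, Vwf among them, while limma on log2(TPM + 1) called Treml1 alone.

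Genes of the same lineage outside the 9 were counted from a list of 30, also chosen with earlier results of these data known. In Spl, 10 of the 30 were called higher in knockout mice and 0 lower, with a median of 0.39. The smallest adjusted p were those of Slc35d3, a platelet dense granule transporter (0.84 ± 0.14, adjusted p = 5.0e-04), of clotting factor V F5 (0.70 ± 0.15, adjusted p = 0.0071), of thrombospondin Thbs1 (0.72 ± 0.17, adjusted p = 0.017), and of Gfi1b, a transcription factor of megakaryocytes and erythroid cells (0.75 ± 0.18, adjusted p = 0.022). Markers of other blood cells were counted in the same way. In Spl, 3 of 10 neutrophil genes were called higher in knockout, with a median of 1.18, and their summed level was 82.5 to 819 TPM in GC_WT, 131 to 262 in FL_WT, 251 to 964 in GC_KO and 206 to 322 in FL_KO. All 13 erythroid genes tested were above 0 and 0 were called, with a median of 0.26. All 12 endothelial genes were below 0 and 0 were called. The part of neutrophil and erythroid cells in the members' difference was not tested.

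Flight and ground did not separate the members in Spl. The 9 averaged log2 differences were all below 0, from -0.46 to -0.20, and 0 were called, while 4.74% of genes were called lower. Only Gp9 (-0.46 ± 0.15, adjusted p = 0.056) had an unadjusted p under 0.05, and DESeq2 and limma called it. Without GC_KO replicate 4 the differences shrank to -0.33 to -0.02. Erythroid genes fell in flight in the same libraries, 12 of 13 being called with a median of -2.78, from a summed 6698 to 25671 TPM in GC_WT to 1291 to 5410 TPM in FL_WT. Of the 30 other megakaryocyte genes, 5 were called lower in flight. They were Gata1 (-0.79 ± 0.18), Gfi1b (-0.81 ± 0.19), Zfpm1 (-0.25 ± 0.06), Nfe2 (-0.61 ± 0.15) and Plek (-0.15 ± 0.04, adjusted p = 0.043). All but Plek are transcriptional regulators that erythroid cells use as well.

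In TpB, flight mice lay above ground mice on average, but no difference passed. All 9 averaged flight differences were above 0, from 0.50 to 1.08 on the log2 scale with a median of 0.84, 8 had an unadjusted p under 0.05, and 0 were called (adjusted p 0.75 to 1). No gene at all was called in this comparison (0% of 18184), against 392 genes higher and 509 lower at an unadjusted p under 0.05. DESeq2 called 2 genes higher and 20 lower, no member among them, and limma called 0.

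Pf4 in TpB had a lowest, median and highest level of 63.5, 147 and 195 TPM in GC_WT, 112, 266 and 386 TPM in FL_WT, and 50.5, 120.4 and 166 TPM in GC_KO, and the FL_KO mice had 88.9, 118, 231, 252 and 404 TPM. Ppbp was at 82.8, 235 and 271 TPM in GC_WT (lowest, median, highest), 130.3, 397 and 696 TPM in FL_WT, 58.2, 167 and 229 TPM in GC_KO, and 125, 183, 379.8, 445 and 834 TPM in FL_KO. The flight groups reached higher but started within the ground range. Their averaged flight differences were 0.77 ± 0.29 and 0.98 ± 0.34.

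Gp1ba had the largest flight difference, 1.08 ± 0.35. It was at 5.14, 13.5 and 15.2 TPM in GC_WT (lowest, median, highest), 8.67, 22.4 and 51.8 TPM in FL_WT, 3.30, 9.13 and 14.9 TPM in GC_KO, and 7.80, 12.7, 18.5, 26.65 and 56.8 TPM in FL_KO. Gp9 was at 7.84, 30.2 and 36.2 TPM in GC_WT, 17.7, 51.0 and 69.6 TPM in FL_WT, 7.42, 21.3 and 30.9 TPM in GC_KO, and 10.99, 19.1, 37.8, 44.3 and 69.6 TPM in FL_KO. Gp6 was at 1.42, 5.37 and 5.61 TPM in GC_WT, 3.11, 8.90 and 15.5 TPM in FL_WT, 1.02, 3.72 and 5.2 TPM in GC_KO, and 1.95, 3.59, 5.83, 10.6 and 20.7 TPM in FL_KO. In all 3 receptor genes FL_KO replicate 9 was the highest mouse of its group, and GC_WT replicate 8 was the lowest mouse of GC_WT.

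The integrin chains, Treml1 and Vwf behaved alike. Itga2b in TpB was at 16.2, 43.5 and 65.9 TPM in GC_WT (lowest, median, highest), 30.9, 75.3 and 123 TPM in FL_WT, 22.2, 33.1 and 51.7 TPM in GC_KO, and 29.55, 30.7, 65.2, 69.7 and 123 TPM in FL_KO. Itgb3, which osteoclasts of bone also use, was at 14.7, 34.9 and 40.85 TPM in GC_WT, 23.2, 58.0 and 105 TPM in FL_WT, 13.9, 27.3 and 34.5 TPM in GC_KO, and 23.25, 31.5, 50.6, 60.5 and 117 TPM in FL_KO. Treml1 was at 10.05, 26.7 and 38.7 TPM in GC_WT, 20.7, 44.0 and 84.5 TPM in FL_WT, 9.31, 20.5 and 31.75 TPM in GC_KO, and 13.3, 25.7, 42.7, 58.4 and 86.1 TPM in FL_KO. Their flight differences were 0.72 ± 0.30, 0.87 ± 0.30 and 0.91 ± 0.32. Vwf was at 15.0, 18.1 and 22.9 TPM in GC_WT, 16.0, 30.7 and 43.85 TPM in FL_WT, 15.2, 19.7 and 24.7 TPM in GC_KO, and 15.0, 25.2, 26.3, 27.1 and 47.1 TPM in FL_KO, with the smallest flight difference of the 9 (0.50 ± 0.20).

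**Figure D4:**
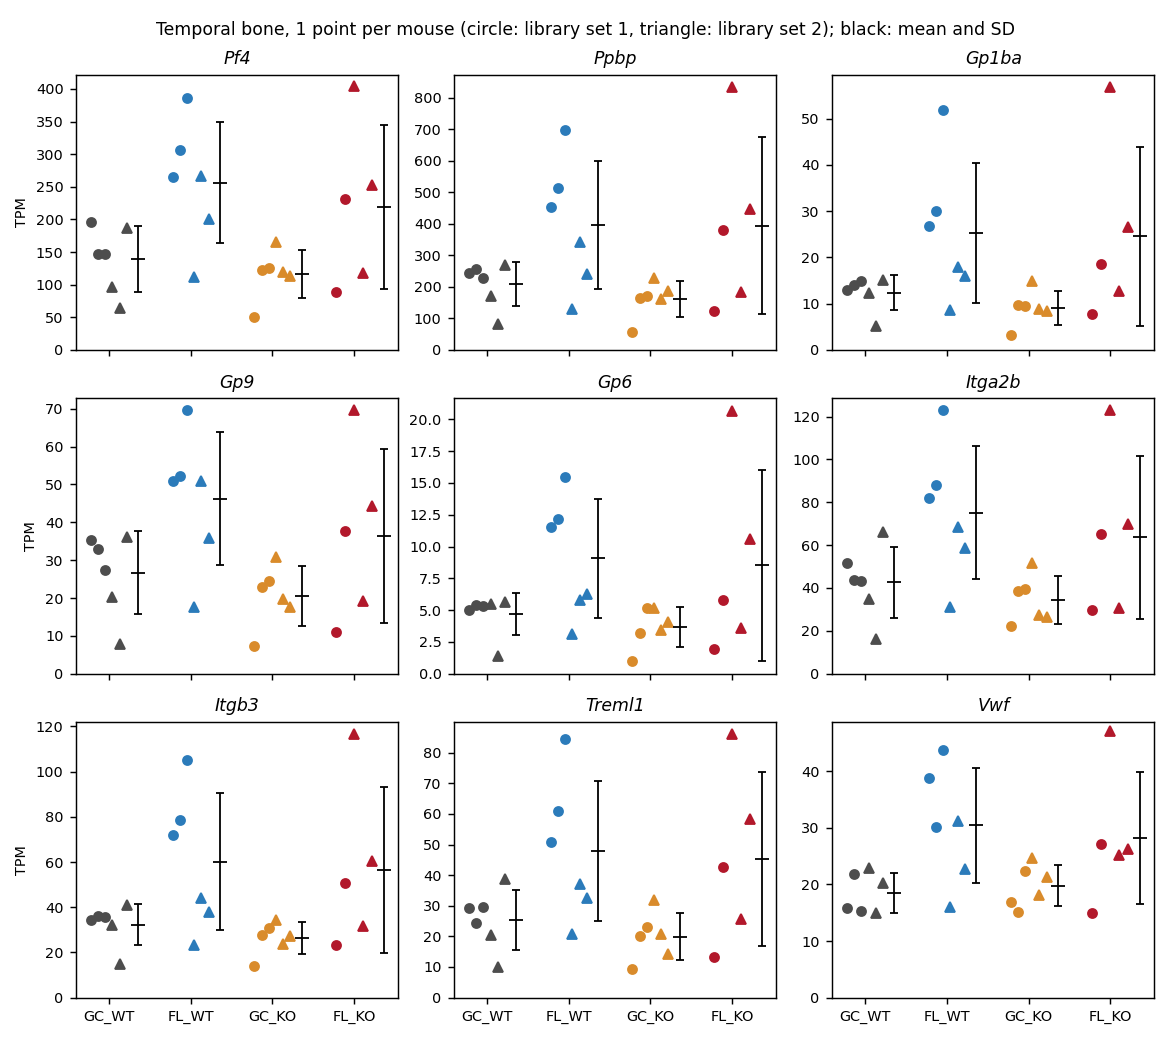
TPM of the 9 genes in TpB of each mouse, by group, 1 panel per gene, with circles for library set 1 and triangles for library set 2 and black marks for the mean and SD. Flight groups reach higher than ground groups, and each flight group also has mice inside the ground range (Pf4 in FL_KO, 88.9 to 404 TPM).

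By library number, TpB falls into 2 sets, of mice 1 to 6 and of mice 7 to 12. Within set 1 the flight differences were 0.51 to 0.94, within set 2 they were 0.32 to 0.84, and with the set as a term they were 0.50 to 1.08, with 0 called in each. Markers of other cells were counted in the same libraries. In flight, 28 of 30 other megakaryocyte genes (median 0.62), 8 of 8 osteoclast genes (0.62) and 10 of 11 neutrophil genes (0.54) were above 0, while 13 of 13 erythroid genes (-0.42) and 7 of 7 skeletal muscle genes (-0.56) were below 0, and 0 of these genes were called. The summed osteoclast genes were at 205 to 466 TPM in GC_WT, 283 to 823 in FL_WT, 250 to 348 in GC_KO and 211 to 666 in FL_KO. The summed skeletal muscle genes ranged over all mice from 12.3 to 26915 TPM. The part of tissue make-up in the members' difference was not tested. Knockout and WT did not separate the members in TpB, with 9 averaged differences from -0.37 to -0.01 and 0 called (0.225% of genes called lower).

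**Figure D5:**
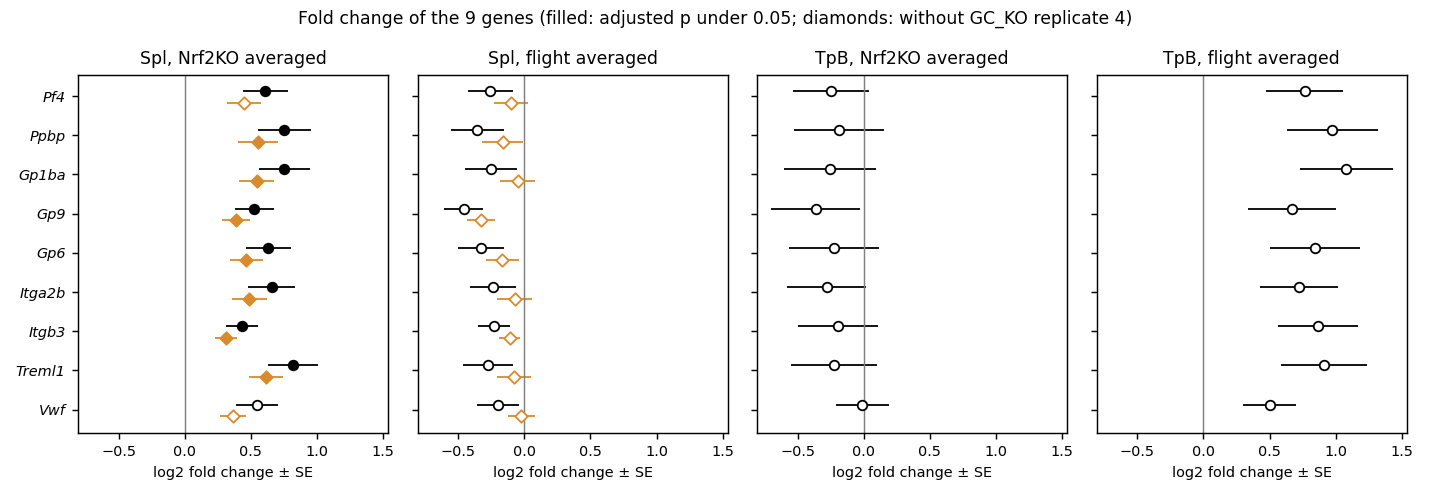
Log2 fold changes ± SE of the 9 genes in Spl and TpB, for knockout against WT averaged over flight and ground and for flight against ground averaged over genotypes. Filled points have an adjusted p under 0.05, and orange diamonds are the Spl fits without GC_KO replicate 4. The 9 genotype differences in Spl are all above 0 with 8 filled, and the 9 flight differences in TpB are all above 0 with 0 filled.

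The members varied together between mice in the 2 tissues where all were expressed. After group means had been removed, Pearson's r between pairs of members over 23 mice was 0.80 to 0.99 in TpB (median 0.96 over 36 pairs) and 0.82 to 0.97 in Spl (median 0.93), the points of a pair coming from the same libraries. Without GC_KO replicate 4 the median in Spl was 0.86. The mean deviation of the 9 genes in a mouse from its group ran from -1.37 (GC_WT replicate 8) to 1.35 (FL_KO replicate 9) in TpB on the log2 scale, and was 1.16 for GC_KO replicate 4 in Spl. In TpB that mouse was unremarkable, with 125 TPM of Pf4 and 170.4 TPM of Ppbp. In the other 7 tissues, where 3 to 10 pairs could be formed, the median r lay lower, from -0.12 in MdB (11 mice) to 0.26 in Kid (12 mice). Single pairs there reached 0.78 (Pf4 with Vwf in MdB) and 0.65 (Itga2b with Itgb3 in Kid). The genes whose deviations were most like the members' mean in TpB were Fermt3, Gp5, Stx11, Alox12 and P2rx1 (each 0.99, of 13662 genes compared). In Spl they were Alox12 (0.97), Gp5 (0.96), Mmrn1 (0.96), Thbs1 (0.96) and Tubb1 (0.95), of 11866 genes. A high r in TpB was not confined to the lineage. Ikzf1 and Cd52, outside the list of 30 other megakaryocyte genes, were at 0.98, and F5 of that list, at 0.91, ranked 453. Over that list r was 0.02 to 0.99 in TpB (median 0.93, 30 genes) and -0.35 to 0.97 in Spl (median 0.73, 27 genes), with Fli1 lowest in Spl.

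MdB, the other bone, was poor in these genes. Gp1ba, Gp9, Gp6 and Treml1 had at most 4 expected counts in any mouse. Pf4 was at 9.56, 9.85 and 13.8 TPM in GC_WT, 7.13, 7.25 and 8.52 TPM in FL_WT, 7.11, 8.11 and 11.3 TPM in GC_KO, and 7.41 and 10.6 TPM in FL_KO. Ppbp was at 1.28, 1.73 and 4.87 TPM in GC_WT, 1.05, 1.17 and 1.5 TPM in FL_WT, 0.99, 1.25 and 1.57 TPM in GC_KO, and 0.84 and 1.72 TPM in FL_KO. The groups overlapped for Ppbp, and for Pf4 the FL_WT mice lay below the GC_WT mice without a call (-0.58 ± 0.29, adjusted p = 0.61). The marrow markers were low there too, with neutrophil genes at a summed 2.80 to 23.8 TPM against 893 to 13114 TPM in TpB.

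Of the integrin chains in MdB, Itgb3 was at 5.51, 6.17 and 6.23 TPM in GC_WT, 5.15, 7.32 and 7.38 TPM in FL_WT, 3.68, 5.08 and 8.72 TPM in GC_KO, and 4.24 and 5.45 TPM in FL_KO. Itga2b lay between 0.63 and 1.68 TPM in all mice. Vwf was at 1.87, 2.30 and 3.02 TPM in GC_WT, 3.66, 4.77 and 5.22 TPM in FL_WT, 1.25, 3.49 and 4.15 TPM in GC_KO, and 1.92 and 5.28 TPM in FL_KO. For Vwf the FL_WT mice lay above the GC_WT mice without a call (0.85 ± 0.41, adjusted p = 0.60), and the knockout groups overlapped. Of the 5 members tested, 0 were called with flight averaged (0% of genes called in either direction) or with knockout averaged (0.513%).

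In Thy, 3 members were tested, and 2 that endothelial cells also express differed between groups. Levels were low, with Vwf at 1.14 to 3.59 TPM and the 7 members other than Vwf and Itgb3 at no more than 3.06 TPM. Vwf was at 1.14, 1.73 and 1.86 TPM in GC_WT (lowest, median, highest), 1.74, 2.05 and 3.05 TPM in FL_WT, 1.53, 2.09 and 2.54 TPM in GC_KO, and 2.84, 3.12, 3.48, 3.53 and 3.59 TPM in FL_KO. The FL_KO mice lay above all GC_KO and GC_WT mice, and 1 FL_WT mouse reached into their range. Vwf was higher in knockout than in WT, by 0.48 ± 0.13 on the ground (adjusted p = 0.036, with 2.67% of genes called higher), by 0.72 ± 0.13 in flight (adjusted p = 0.0027, with 1.31%) and by 0.60 ± 0.09 averaged (adjusted p = 1.4e-04, with 6.17%). It was higher in flight among knockout mice by 0.42 ± 0.13 (adjusted p = 0.012, with 19.3% of genes called higher) and averaged by 0.31 ± 0.09 (adjusted p = 0.0078, with 25.1%). Among WT mice, Vwf was not called between flight and ground (11.8% of genes called higher). The call on the ground was lost when any 1 of 8 mice was left out (log2 fold change 0.41 to 0.58 over 23 such fits).

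Itgb3 in Thy was at 3.69, 4.39 and 6.07 TPM in GC_WT, 6.02, 6.72 and 7.25 TPM in FL_WT, 2.33, 3.40 and 4.03 TPM in GC_KO, and 4.86, 5.83, 5.87, 6.48 and 7.20 TPM in FL_KO. Flight and ground did not overlap in knockout mice and met at 1 GC_WT mouse in WT. The gene was higher in flight by 0.60 ± 0.12 among knockout mice (adjusted p = 5.2e-04) and by 0.45 ± 0.08 averaged (adjusted p = 1.2e-04), against 0.30 ± 0.11 among WT mice (adjusted p = 0.062; 11.8% of genes called higher). On log2(TPM + 1), limma called it also in WT mice, but there the median of all genes in Thy moved by 0.17 with flight. Endothelial and macrophage genes rose in flight in the same libraries, 11 of 12 (median 0.40) and 7 of 7 (0.46) being called, and the endothelial sum went from 58.6 to 67.1 TPM in GC_WT to 71.3 to 84.5 TPM in FL_WT. By genotype 0 of 12 endothelial genes were called (median 0.10), with sums of 46.9 to 67.7 TPM in GC_KO and 64.2 to 84.4 TPM in FL_KO. Their part in the flight differences of Itgb3 and Vwf was not tested.

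In iBAT, Itgb3 was called higher in flight at a level close to the limit of counting. It had 4 to 20 expected counts per mouse in GC_WT, 18 to 27 in FL_WT, 5 to 11 in GC_KO and 19 to 32 in FL_KO, or 0.05 to 0.28, 0.26 to 0.40, 0.07 to 0.15 and 0.29 to 0.45 TPM. The ranges did not overlap in knockout mice and met in WT mice. The differences were 1.22 ± 0.31 among knockout mice (adjusted p = 0.0045, with 17% of genes called higher), 0.86 ± 0.30 among WT mice (adjusted p = 0.044, with 8.83%) and 1.04 ± 0.21 averaged (adjusted p = 4.9e-04, with 23.3%). The call in WT mice was lost when any 1 of 10 mice was left out. In the same libraries 7 of 7 skeletal muscle genes (median 7.08), 6 of 7 macrophage genes and 4 of 12 endothelial genes were called higher in flight, and their part was not tested. The other 3 members tested there were not called.

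In eWAT, where Pf4 and Vwf were abundant, no member was called between groups in edgeR. Pf4 had group means of 66.1 ± 7.67 TPM in GC_WT, 75.1 ± 17.6 TPM in FL_WT, 75.1 ± 17.3 TPM in GC_KO (n = 6 mice each) and 75.0 ± 10.4 TPM in FL_KO (n = 5), and its averaged differences were 0.02 ± 0.09 with flight and 0.03 ± 0.09 with knockout. Vwf had means of 17.9 ± 5.19, 21.0 ± 3.67, 24.8 ± 6.07 and 22.5 ± 1.89 TPM in the same order. Of the 5 members tested, 0 were called with flight averaged (22% of genes called in either direction) or with knockout averaged (3.77%), and DESeq2 called Ppbp higher in FL_WT than in GC_WT. In edgeR, 1 of the 5 had an unadjusted p under 0.05 with flight averaged, 1 with knockout averaged and 1 between GC_KO and GC_WT. In Liv, Kid and Cbr, Itga2b, Itgb3 and Vwf were tested, and 0 were called. With flight averaged, 11% of all genes were called in either direction in Liv, 1.41% in Kid and 0.0488% in Cbr, and with knockout averaged 8.91%, 4.59% and 1.81%.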

How the data were processed

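RNA from 9 tissues was sequenced as single reads from strand-specific libraries of poly(A) RNA or, for Thy, of rRNA-depleted RNA. Per the submitters' processing notes, STAR 2.6.1, RSEM 1.3.1 and the mm10 build were used, and the strand setting of counting is not given in the sources used here. For each gene and library the deposited table holds an expected count, RSEM's unnormalized estimate of reads. It also holds a TPM value, which the authors took from RSEM and which is scaled by transcript length and library total. A further 192 columns of FPKM were not used.

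Expected counts were rounded to whole numbers and fitted per tissue with edgeR 4.0.16 in R 4.3.3, all 4 groups in 1 fit without FL04, with filterByExpr, TMM factors and the quasi-likelihood test. P-values were adjusted by Benjamini-Hochberg over all genes of the tissue and called under 0.05. SE was the log2 fold change divided by the root of F. The fits were repeated with DESeq2 1.42.0, with limma 3.58.1 (log2 of TPM + 1 or + 0.1, genes with a mean of at least 5 TPM in a group), with RLE factors, with no filter, with FL04, with the 2 groups of a contrast alone, and with the erythroid list left out, the library set in TpB, the mouse number as a block, and each mouse left out. Fits within a library set and the emphasis on GC_KO replicate 4 were added after the values were seen. The edgeR fit was tested on simulated Spl counts for knockout against WT averaged over flight and ground, and the other steps were not tested in this way. Correlations used log2 CPM with a prior count of 2. Coordinates came from a GENCODE annotation of GRCm38.

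The members and lists were chosen with earlier results of these data known. The 9 members were named in every tissue where a comparison passed and in Spl, TpB and MdB. From the list of 30 other megakaryocyte genes, up to 4 called genes with the smallest adjusted p were named per averaged comparison in Spl. Plek was named in addition for flight. In the other tissues a selection of the called list genes was named. A mouse number in flight and the same number on the ground name different animals, and their deviations from the group means were compared to see whether numbers pair samples.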

Additional observations from a re-analysis of the deposited data

Results flagged for a closer look

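In Spl, GC_KO replicate 4 lay outside the other 5 GC_KO mice beyond Dixon's 95% limit for 9 of 9 members: Pf4 at 179.75 TPM (others 51.9 to 98.6), Ppbp at 410.98 (114 to 187), Gp1ba at 33.0 (8.65 to 16.1), Gp9 at 38.65 (13.8 to 21.35), Gp6 at 15.74 (4.46 to 6.90), Itga2b at 68.79 (22.1 to 33.45), Itgb3 at 80.67 (31.3 to 47.6), Treml1 at 42.93 (11.8 to 19.1) and Vwf at 27.59 (8.39 to 13.2). The genes vary together, so these are not 9 independent observations. In TpB, GC_WT replicate 8 lay below the other 5 GC_WT mice for Gp1ba (5.14 TPM, others 12.2 to 15.2), Gp6 (1.42, others 4.98 to 5.61) and Itgb3 (14.69, others 32.1 to 40.85). Chance alone places about 1 in 20 groups beyond this limit, and 72 groups were examined.

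Flight mouse 04, which entered no comparison, lay above all GC_KO and all other FL_KO mice for Ppbp in MdB (1.91 TPM, against at most 1.72), Liv (1.1, at most 1.09) and eWAT (1.76, at most 1.31). The same held for Itga2b in MdB (1.36 TPM, at most 1.3), Liv (1.23) and eWAT (1.27). Ppbp rests on few reads there, with 16, 11 and 15 expected counts in this mouse in MdB, Liv and eWAT. In Liv, GC_KO replicate 4 also had 11, and in MdB FL_KO replicate 2 had 15. Itgb3 in iBAT, under 1 TPM, was at 0.65 TPM in this mouse (at most 0.45). In Spl it had 94.6 TPM of Pf4 and 188 TPM of Ppbp, above the other FL_KO mice (at most 82.7 and 173) and, for Ppbp, above all GC_KO mice but replicate 4. The mouse is a single animal and was not tested.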

How the results depend on the processing

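Counts are pairs of member and tissue called in the named direction. Over the alternatives that do not leave out a mouse, DESeq2 moved the calls higher in FL_WT against GC_WT from 1 to 2, those in GC_KO against GC_WT from 1 to 4, and those lower with flight averaged from 0 to 1. With no filter on low counts, the calls in FL_WT against GC_WT went to 0 and the members called in Spl for knockout averaged from 8 to 5, and with FL04 included those in FL_WT against GC_WT went to 0. Fitting only the groups of the contrast gave 0 for FL_WT against GC_WT, 0 for GC_KO against GC_WT and 2 for FL_KO against FL_WT (from 1). Limma on log2(TPM + 1) and on log2(TPM + 0.1) both gave 1 for FL_KO against GC_KO (from 3), 0 for GC_KO against GC_WT, 0 for FL_KO against FL_WT, 1 higher (from 3) and 1 lower (from 0) for flight averaged, 1 higher (from 9) and 1 lower (from 0) for knockout averaged, and 1 member in Spl for knockout averaged (from 8). They tested 23 pairs in place of 44, so part of these calls could not be made. For the other megakaryocyte list and all comparisons, limma called 12 and 14 list genes lower (from 34), and in Spl with knockout averaged 5 and 6 higher (from 10). The lower calls were Gp9 in Spl with flight and Itgb3 in Thy with knockout, where the median of all genes moved by -0.11 in Thy on log2(TPM + 1), and the cause was not tested.

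Leaving out each mouse in turn gave 0 to 2 calls for FL_WT against GC_WT, 3 to 3 for FL_KO against GC_KO, 0 to 2 for GC_KO against GC_WT, 1 to 2 for FL_KO against FL_WT, 3 to 3 higher and 0 to 2 lower for flight averaged, 2 to 10 for knockout averaged, 0 to 0 for the interaction, and 1 to 9 members in Spl for knockout averaged. List genes called ranged over 36 to 52 higher and 28 to 38 lower, and other megakaryocyte genes in Spl over 4 to 13 with knockout and 4 to 6 lower with flight. The median r ranged over 0.861 to 0.935 in Spl and 0.951 to 0.964 in TpB. Neighbouring tissues that differed ranged over 0 to 12 (from 23), since fewer mice raise the smallest p the test allows, and numbered 18 in GC_KO mice. Of 537 values of single called members under all alternatives, 402 stayed past the threshold, 135 lost it and 0 changed direction. The mouse numbers were not taken to pair the samples. All same-numbered pairs had a correlation of deviations above 0.1 in 2 of 18 strata of tissue and genotype, KO mice in Liv (r of 0.22 to 0.37, 5 pairs) and in MdB (2 pairs), while single pairs in the other strata ran from -0.51 to 0.75. With the number as a replicate block, Itgb3 in iBAT lost its call in FL_WT against GC_WT (adjusted p = 0.059), Itgb3 in Thy gained one there (0.31, adjusted p = 0.023), and no count of members called moved by over 1.5 times. In TpB, TPM carried a shift of all genes of 0.15 with flight.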

Other observations

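Genes of the wider megakaryocyte list were called also in Thy, Liv, fat and kidney, where Gp1ba, Gp9, Gp6 and Treml1 were below 1 TPM. In Thy with flight averaged, 7 of the 30 list genes were called higher and 5 lower, where 25.1% of all genes were called higher. F13a1, Fermt3 and Fli1 (lower) and Plek (higher) had the smallest adjusted p there. With flight averaged, 3 were called higher and 2 lower in eWAT (22% of genes in either direction). In iBAT these were 4 and 2 (23.3% of genes higher), and in Liv 2 were lower (11% in either direction). Shares of all genes called lower in Thy and iBAT are not given here. The counts in this paragraph are not read as particular to the list. Thbs1, which encodes thrombospondin 1 and is made by many cell types, was higher in flight in eWAT by 2.58 ± 0.34 on the log2 scale (adjusted p = 1.2e-05) and in iBAT by 2.48 ± 0.45 (adjusted p = 1.4e-04), averaged over genotypes. Its level over all mice was 20.0 to 578.8 TPM in eWAT and 0.17 to 10.01 TPM in iBAT. P2ry1, a receptor for ADP, was lower in knockout mice in eWAT by 0.74 ± 0.16 (adjusted p = 0.0071), in iBAT by 0.70 ± 0.12 (adjusted p = 8.5e-04) and in Kid by 0.37 ± 0.10 (adjusted p = 0.049).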
